A study of Mus musculus and Callithrix jacchus with 22 samples.

Results

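Callosal projection neurons (CPN) are the cells described here, as the authors named them in single-cell ATAC-seq of mouse and marmoset cortex. All cells whose deposited type was CPN were taken, which gave 6431 of 35064 cells. Mouse contributed 5411 of 19145 cells and marmoset 1020 of 15919 cells. The mouse cells came from wild-type C57BL/6 animals, from somatosensory with motor cortex, aged 1 day (P1), 7 days (P7) or 21 days (P21) after birth. Each age had 4 libraries, of which 2 carried a number in their titles (numbered libraries) and 2 the word Pool (Pool libraries). The numbered libraries of each age had a number of their own, so within them age and that number cannot be told apart. The marmoset cells came from wild-type animals, with 5 libraries of newborns (Day0) and 5 of adults, whose labels read Y7 or Y8. The marmoset tissue is labelled somatosensory cortex, whereas the methods of the study name motor cortex as well.

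Callosal projection neurons are excitatory pyramidal neurons whose axons cross the corpus callosum and connect the hemispheres. Most lie in the upper layers of the cortex, where the transcription factor Cux2 marks them, and others lie in deep layers. The other pyramidal types named in the tables were subcerebral projection neurons (ScPN), which send axons to the brainstem and spinal cord, corticothalamic projection neurons (CthPN), which send axons to the thalamus, and layer IV neurons, which receive thalamic input. In single-cell ATAC-seq a transposase cuts accessible DNA, so each cell is described by its reads and by the number of peaks, regions of open chromatin, in which a read fell. The tables used here held these 2 counts for each cell with a cluster and a type, and no values for genes. The name CPN could therefore not be checked against Cux2 or any other marker, and the cells are called callosal as the authors named them. Reads and peaks come from the matrix on which the clusters were built.

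Total reads per library ran between 2186788 (P1 Pool library 2) and 15904940 (P21 numbered library 1) in mouse, and newborn marmoset libraries held 10821652 to 13441944. Both numbered P1 libraries stood apart from the rest of the mouse data. A median callosal cell there had 10.8 and 17.2 peaks per 100 reads, against 51.9 to 58.1 in the other 10 mouse libraries. The same held over all annotated cells of those libraries, at 10.7 and 17.1 against 52.1 to 57.8, so the low value was shared by the library and was not limited to callosal cells. The main comparisons with P1 are also given without them. In mouse, 2559 of 5411 callosal cells carried a barcode also seen in another library, as did 9138 of all 19145 mouse cells. Shared barcodes were thus no trait of callosal cells. Of 2667 pairs of cells with a shared barcode and at least 1 callosal member, both were callosal in 454 (17.02%). The share of such pairs that random pairing of cells would give was not computed. The replicates of an age within the numbered or the Pool libraries shared 0 barcodes. In marmoset 20 of 1020 callosal cells and 295 of all 15919 cells carried a shared barcode, and in 0 of 20 pairs were both callosal.

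Callosal cells filled a single cluster at each age, and a different one each time. All 1851 P1 cells were in cluster 1, all 1449 P7 cells in cluster 3 and all 2111 P21 cells in cluster 0. The 1020 newborn marmoset cells were all in cluster 4 of the marmoset clustering. No other named type entered these clusters. The only other cells in them were 9 cells of P7, from 3 libraries, in the P1 callosal cluster. These 9 cells had no type, with a median of 2766 reads and 1533 peaks. The other pyramidal types were not always held by 1 cluster: corticothalamic neurons filled 2 clusters at P1, 2 at P7 and 4 at P21, and subcerebral neurons 1, 1 and 2. Since the name follows the cluster, and the authors filtered out small clusters of single ages, this is a description and no test applies to it.

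How large a part of the recovered mouse cells was callosal was asked first. The shares are shares of annotated cells in a library, not of the tissue. At P1 the numbered libraries held 40.4% and 40.6% callosal cells and the Pool libraries 39.4% and 39.3%. At P7 the values were 28.6% and 28.6% in numbered and 30.9% and 28.7% in Pool libraries. At P21 they were 25.9% and 27.2% in numbered and 26.7% and 28.8% in Pool libraries. The P1 libraries thus lay above all libraries of the later ages, whereas P7 and P21 overlapped. The 95% Wilson interval of a single library reached at most 3.28 percentage points to either side of its centre, which covers counting error only.

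**Figure D1:**
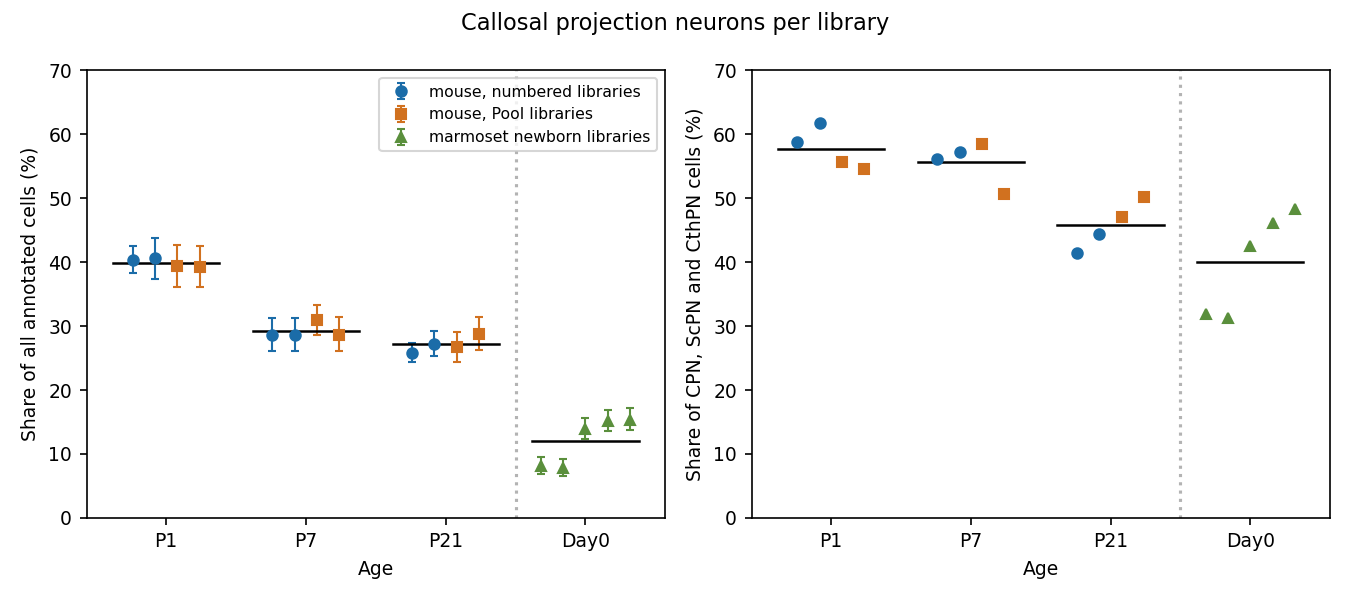
Callosal projection neurons in each library, as a percent of all annotated cells (left, error bars are 95% Wilson intervals) and as a percent of callosal, subcerebral and corticothalamic cells (right), by age. Each point is a library, black lines are means over libraries, and the dotted line sets marmoset apart from mouse. On the left the 4 P1 libraries sit between 39.3% and 40.6%, above every P7 and P21 library, and on the right P1 and P7 overlap.

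The share averaged 39.9% ± 0.673 over P1 libraries, 29.2% ± 1.17 over P7 libraries and 27.1% ± 1.23 over P21 libraries (SD, n = 4 each). P7 differed from P1 by -10.7 percentage points and P21 from P1 by -12.8. Both gave p = 0.0286 in the exact two-sided permutation test of library means (n = 4 against 4), the smallest p that this design allows, and an adjusted p of 0.0612. Here and below p was adjusted by the Benjamini-Hochberg method over the 15 comparisons between ages, and 0 of the 15 passed 0.05 after adjustment. Unadjusted, 7 of the 15 gave the smallest possible p. With 7 at that p, no adjusted p could fall below 0.0612, even where the libraries of 2 ages did not overlap. Not passing 0.05 is therefore no measure of how small these differences were. Without both numbered P1 libraries the differences from P1 were -10.1 at P7 and -12.2 at P21, and with 2 against 4 libraries neither could pass. Within the numbered libraries P7 minus P1 was -11.9 points and P21 minus P1 was -14.0, and within the Pool libraries -9.53 and -11.6.

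Between P21 and P7 the direction depended on cells without a type. Their mean shares, 27.1% at P21 and 29.2% at P7, differed by -2.07 points (p = 0.114, adjusted p = 0.171, exact permutation test, n = 4). At P7 1182 cells (19.3%) had no type, against 272 (3.34%) at P21 and 243 (4.99%) at P1. With these cells kept in the denominator, P21 minus P7 was 2.49 points (adjusted p = 0.0536, exact permutation test, n = 4), the opposite direction. The largest set of untyped P7 cells was cluster 9, with 834 cells, which held no callosal cell.

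Layer IV neurons were named at P7 and P21 and not at P1. A share without them, of callosal among callosal, subcerebral and corticothalamic cells, averaged 57.7% ± 3.24 over P1, 55.6% ± 3.48 over P7 and 45.8% ± 3.73 over P21 libraries (SD, n = 4 each). P7 and P1 overlapped on this scale, where they had not as shares of all annotated cells. At P7 the libraries held 56.1% and 57.3% (numbered) and 58.5% and 50.6% (Pool), against 58.8% and 61.8% (numbered) and 55.6% and 54.6% (Pool) at P1. The difference of -2.08 points did not exceed the spread between libraries (p = 0.429, adjusted p = 0.495, exact permutation test, n = 4). Without both numbered P1 libraries it was 0.50 points. It also depended on the untyped cells of cluster 9: counting them as corticothalamic, an alternative chosen after seeing the data, gave P7 minus P1 of -15.5 points (p = 0.0286, adjusted p = 0.0612, exact permutation test, n = 4).

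At P21 the libraries held 41.4% and 44.5% (numbered) and 47.0% and 50.2% (Pool), below all libraries of P7 and of P1. P21 minus P1 was -11.9 points and P21 minus P7 was -9.86, each with p = 0.0286 and adjusted p = 0.0612 (exact permutation test, n = 4). Without both numbered P1 libraries P21 minus P1 was -9.36 points. The step was larger in the numbered libraries, where P21 minus P7 was -13.8 points, than in the Pool libraries, where it was -5.97; the difference between them was not tested. It also turned with the cells of cluster 9: counting them as corticothalamic gave P21 minus P7 of 3.58 points. Counting layer IV cells together with callosal cells gave P7 minus P1 of 11.4 points and P21 minus P1 of 2.07.

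Callosal cells were then counted against each other pyramidal type. For each subcerebral cell P1 libraries had 5.00 ± 0.866 callosal cells, P7 libraries 1.72 ± 0.177 and P21 libraries 1.83 ± 0.235 (SD, n = 4 each). The lowest P1 library had 4.02 and the highest later library 2.15, so P1 did not overlap with the later ages, and the Pool P1 libraries alone averaged 4.40. For each corticothalamic cell P1 libraries had 1.90 ± 0.237 callosal cells, P7 libraries 4.88 ± 1.19 and P21 libraries 1.60 ± 0.276 (SD, n = 4 each), and here P7 was the age that stood apart, also from the Pool P1 libraries alone, which averaged 1.71. Corticothalamic cells were few at P7, with 77, 63, 72 and 92 per library, whereas cluster 9 held 192, 171, 272 and 199 untyped cells in the same libraries. With cluster 9 added to them the P7 ratio was 1.28 ± 0.138. For each layer IV cell there were 1.31 ± 0.0596 callosal cells at P21 and 1.27 ± 0.0692 at P7 (SD, n = 4 each), ranges of 1.27 to 1.39 and 1.19 to 1.36 that overlapped. These ratios were not tested.

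Reads per callosal cell were examined next, because they set how much of a cell's open chromatin is seen. The authors had sampled the libraries down to a similar depth per cell, so these reads are not the depth as sequenced. Differences in reads between ages, or their absence, are therefore no property of the cells alone. At P1 the median cell had 4773 and 6260 reads in numbered libraries but 1846 and 1963.5 in Pool libraries. At P7 it had 4237 and 3813 (numbered) and 2729.5 and 3604.5 (Pool), and at P21 4498 and 4482.5 (numbered) and 4093.5 and 4328 (Pool). The spread between libraries was widest at P1 and narrowest at P21. No comparison of ages held up: P7 minus P1 was -115 reads (adjusted p = 0.886), P21 minus P1 was 639.9 (adjusted p = 0.520) and P21 minus P7 was 754.5 (adjusted p = 0.0952, exact permutation tests, n = 4 each). The numbered and Pool libraries went opposite ways, with P21 minus P1 at -1026 reads in numbered and 2306 in Pool libraries. Without both numbered P1 libraries, P7 minus P1 was 1691 reads and P21 minus P1 was 2446.

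**Figure D2:**
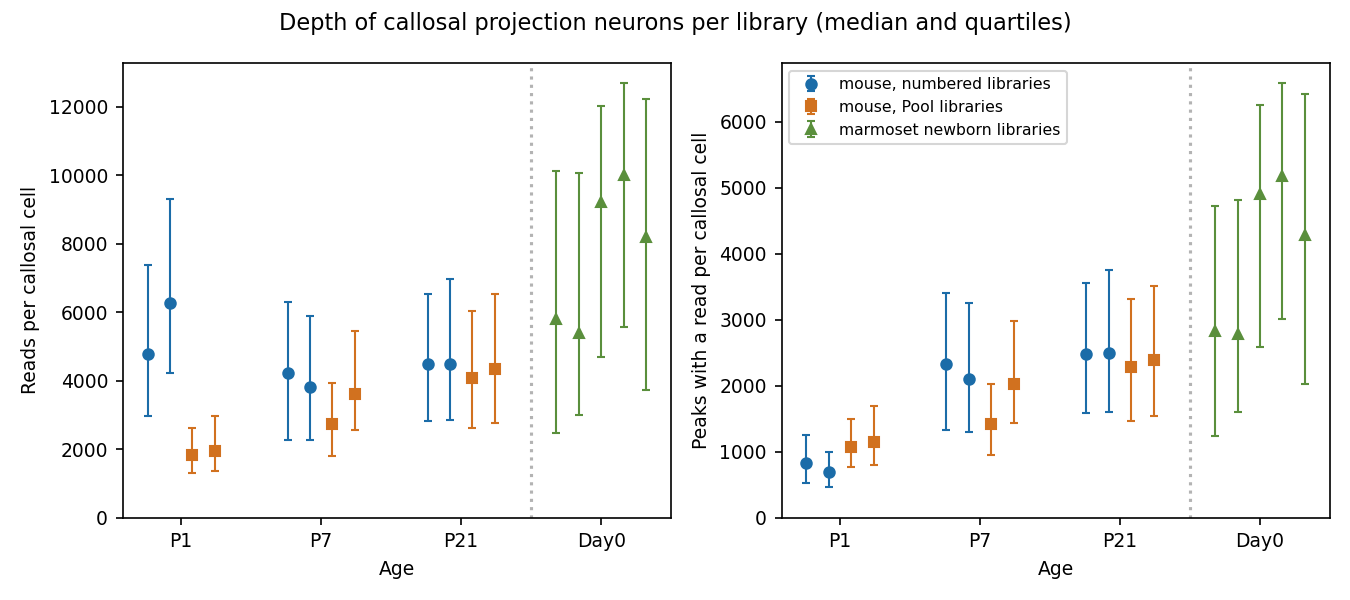
Reads (left) and peaks with a read (right) per callosal cell in each library, by age. Points are medians over the callosal cells of a library, bars run between the lower and upper quartile, and the dotted line sets marmoset apart from mouse. The numbered P1 libraries have the most reads and the fewest peaks of all mouse libraries, with medians of 4773 and 6260 reads but 838 and 701 peaks.

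Within a library the callosal cells spread widely in reads. The upper quartile was 1.99 to 2.76 times the lower in the 12 mouse libraries. Libraries differed in how many callosal cells lay near the limits of the cell filter. Cells with under 1500 reads made up 34.0% and 31.6% of callosal cells in the Pool P1 libraries, 1.49% and 0.27% in the numbered P1 libraries and 4.75% to 13.1% at P7 and P21. Cells with under 350 peaks were found only in the numbered P1 libraries, 49 and 30 cells. The cell filter also asked for at least 300 peaks. The lowest callosal cell had 301 peaks in both numbered P1 libraries, against 487 to 583 in the other 10 mouse libraries. Cells with few reads could thus fall under the peak minimum there. How far this raised the medians of reads in these libraries was not tested. The lowest callosal cell of numbered P1 library 2 had 1436 reads, whereas the lowest of the other 11 mouse libraries had 1000 to 1042.

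Peaks per callosal cell were fewer at P1 than at the later ages in all libraries. The P1 medians were 838 and 701 peaks in numbered and 1074 and 1142.5 in Pool libraries. At P7 they were 2334.5 and 2098 (numbered) and 1419.5 and 2031 (Pool), and at P21 2476.5 and 2493 (numbered) and 2282.5 and 2397 (Pool). P1 thus did not overlap with either later age. P7 minus P1 was 1032 peaks (2.10-fold) and P21 minus P1 was 1473 peaks (2.57-fold), each with p = 0.0286 and adjusted p = 0.0612 (exact permutation test, n = 4). P21 minus P7 was 441.5 peaks (adjusted p = 0.0952, exact permutation test, n = 4 against 4). Leaving out both numbered P1 libraries gave 862.5 peaks for P7 minus P1 and 1304 for P21 minus P1.

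The number of peaks follows the number of reads, so callosal cells within a narrower range of reads were compared. Among those with 2000 to 4000 reads the median was 504 and 369 peaks in the numbered P1 libraries, and 1472 and 1539 in the Pool P1 libraries. At P7 it was 1690 and 1684 (numbered) and 1503 and 1647 (Pool), and at P21 1654.5 and 1741.5 (numbered) and 1662 and 1722 (Pool). Within the Pool libraries the means were 1505.5 peaks at P1, 1575 at P7 and 1692 at P21. P21 minus P1 in Pool libraries was then 186.5 peaks, against 1231.5 peaks over cells of all depths. Reads were not equal within this window either. Their medians were 2571 and 2647 in the Pool P1 libraries, 2852 and 2962 in the Pool P7 libraries and 2939 and 3095 in the Pool P21 libraries. The 186.5 peaks are thus not a difference at equal reads. In the numbered libraries, by contrast, P21 minus P1 was 1261.5 peaks in this window. Over all libraries P7 minus P1 was 660 peaks (adjusted p = 0.107), P21 minus P1 was 724 (p = 0.0286, adjusted p = 0.0714) and P21 minus P7 was 64 (adjusted p = 0.312, exact permutation tests, n = 4).

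**Figure D3:**
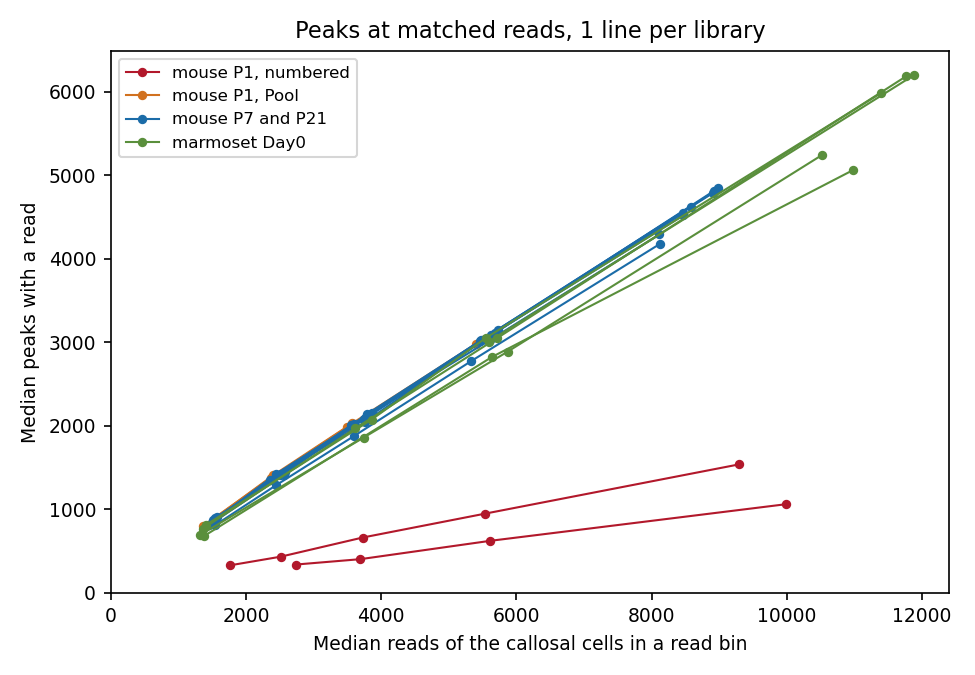
Median number of peaks with a read against median reads, for callosal cells grouped by reads (1000, 2000, 3000, 4500 and 7000 reads as lower bounds), with 1 line per library and only groups of 20 cells or more. The lines of 10 mouse libraries and of the 5 newborn marmoset libraries run close together. The 2 numbered P1 libraries run far below, with 623 and 948.5 peaks at 4500 to 7000 reads against 2777 to 3149.5 in the other mouse libraries with enough cells.

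Peaks per read were nearly constant among callosal cells elsewhere. Outside P1 the median number of peaks per 100 reads was 51.9 in P7 Pool library 1 and between 55.1 and 55.8 in the other 7 libraries of P7 and P21. The Pool P1 libraries had 58.1 and 58.0, the highest in mouse. In the group with the most reads, from 7000 upwards, the numbered P1 libraries had medians of 1061.5 and 1538 peaks, against 4181 to 4843.5 in the 8 other mouse libraries with enough such cells.

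To remove the depth of the library, callosal reads were set against those of the other pyramidal neurons of the same library. Over the 12 mouse libraries the callosal median was 0.988 times that of the other pyramidal neurons, higher in 6 libraries and lower in 6 (mean log2 ratio -0.02 ± 0.15 SD, exact sign-flip permutation test, p = 0.697, adjusted over 2 tests 0.697, n = 12). The same test on peaks gave a mean ratio of 0.988 (p = 0.690, exact sign-flip permutation test, n = 12). The value depended on layer IV cells. Without layer IV cells in the comparison the mean log2 ratio was -0.12 for reads and -0.12 for peaks (adjusted p = 0.0190 each, exact sign-flip permutation test, n = 12).

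By type, callosal cells had fewer reads than subcerebral cells in 9 of the 12 mouse libraries and more in 3, with a median ratio of 0.90. At P21 the ratio to subcerebral cells lay between 0.865 and 0.929 in the 4 libraries. Against corticothalamic cells the callosal median was lower in the 4 P7 libraries (0.639 to 0.911) and higher in the 4 P21 libraries (1.042 to 1.098). Against layer IV cells it was higher in all 8 libraries that held them, by 1.004 to 1.36 times at P7 and 1.096 to 1.31 times at P21. Callosal cells thus took a middle place at P21, below subcerebral and above corticothalamic and layer IV cells in reads in each of the 4 libraries.

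**Figure D4:**
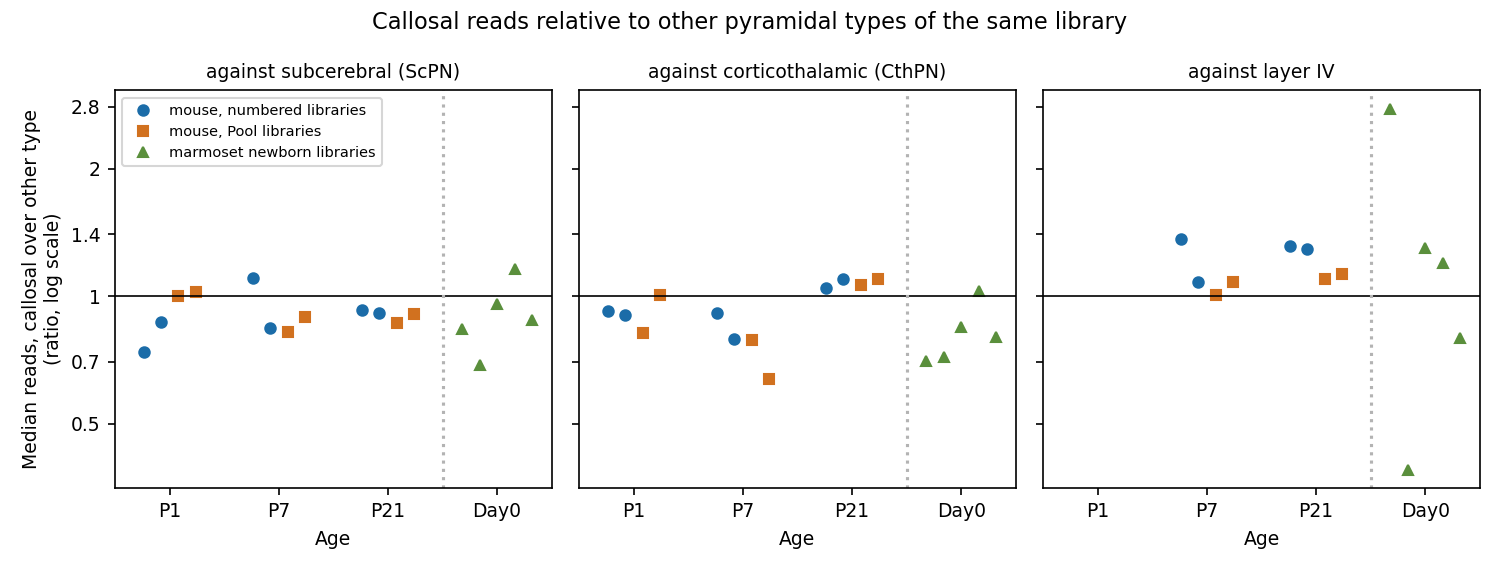
Ratio of the median reads of callosal cells to those of subcerebral (left), corticothalamic (middle) and layer IV cells (right) of the same library, on a log scale, by age. Each point is a library, the line at 1 means equal reads, and the dotted line sets marmoset apart from mouse. At P21 the 4 libraries lie below 1 for subcerebral cells (0.865 to 0.929) and above 1 for both other types. The marmoset layer IV values of libraries 1 and 2 rest on 2 and 8 cells.

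Across ages the log2 ratio of callosal to all other pyramidal reads averaged -0.13 ± 0.11 over P1, -0.01 ± 0.20 over P7 and 0.09 ± 0.06 over P21 libraries (SD, n = 4 each). It was above 0 in 1 P1 library, 1 P7 library and all 4 P21 libraries. P21 minus P1 was 0.22 (p = 0.0286, adjusted p = 0.0612) and the other differences were 0.13 for P7 minus P1 (adjusted p = 0.468) and 0.09 for P21 minus P7 (adjusted p = 0.495, exact permutation tests, n = 4). Since layer IV cells enter the comparison only from P7 on, the ratio was also taken without them, and P21 minus P1 was then 0.13 and P21 minus P7 was 0.20 (adjusted p = 0.195 each, exact permutation test, n = 4). Without both numbered P1 libraries, and with layer IV cells, P21 minus P1 was 0.19 and P7 minus P1 was 0.10.

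At P7 and P21 the callosal share also went with the reads of the cells within a library. Annotated cells of each library were divided into 4 groups of equal size by their reads. At P21 the callosal share was 19.4% ± 0.775 in the group with the fewest reads, 25.02% ± 0.610 and 32.3% ± 1.99 in the next groups and 31.8% ± 3.70 in the group with the most (SD, n = 4 libraries). At P7 the same groups held 23.5% ± 3.62, 27.9% ± 4.79, 32.8% ± 1.19 and 32.6% ± 3.59 (SD, n = 4). The group with the most reads thus had the larger callosal share in 4 of 4 P21 libraries, by 12.4 points on average, and in 4 of 4 P7 libraries, by 9.07 points. At P1 it did so in 2 of 4 libraries, and the mean difference was -3.45 points with a range of -16.0 to 2.75. In newborn marmoset (Day0) it did so in 4 of 5 libraries, with a mean of 5.74 points and a range of -1.47 to 16.9. Higher reads were not limited to callosal cells. The other pyramidal neurons also had median reads above the library median in each P7 and P21 library. Their medians were 3017 to 3928 against 2605 to 3467 at P7, and 4042.5 to 4170 against 3633 to 3961 at P21. The shares of other types by read group were not computed. Among cells with at least 2000 reads P7 minus P1 was -8.48 points and P21 minus P1 was -10.7 (adjusted p = 0.0612 each, exact permutation test, n = 4).

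**Figure D5:**
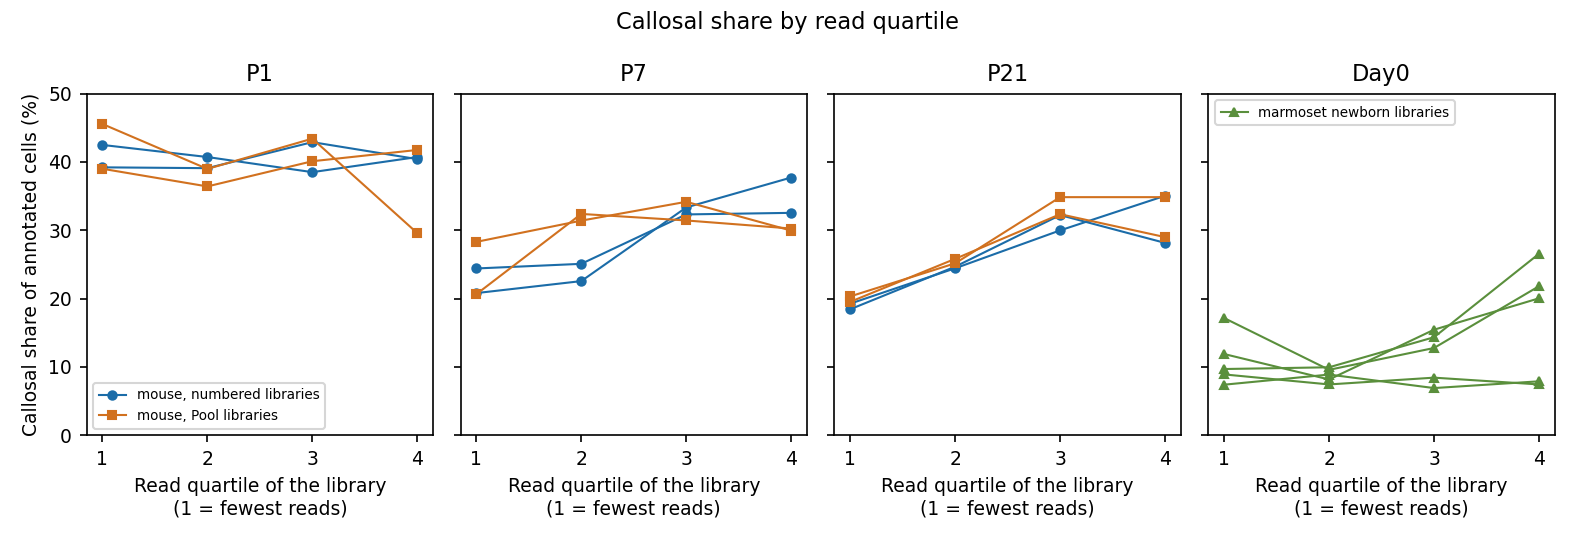
Callosal share of annotated cells in 4 groups of equal size made by the reads of the cells in each library, with the fewest reads on the left, for each age. Each line is a library. At P7 and P21 the share is larger in the group with the most reads than in the group with the fewest in all 8 libraries. At P1 it is larger in 2 of 4 and in newborn marmoset (Day0) in 4 of 5.

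Marmoset callosal neurons were found in newborns only, in all 5 libraries. They made up 8.06%, 7.78%, 13.9%, 15.1% and 15.3% of cells in libraries 1 to 5, a mean of 12.0% ± 3.81 (SD, n = 5). Libraries 1 and 2 lay below the other 3, with Wilson intervals of 6.83% to 9.49% and 6.57% to 9.18%, against 12.4% to 15.6% in library 3. In the 5 adult libraries 0 of 7512 cells were named callosal. This was not particular to callosal cells, since subcerebral cells were also named in newborns only, with 0 in each adult library. A count of 0 allows a share of up to 0.183% to 0.248% in a single library, for counting error of the name only. Of these adult cells 506 had another pyramidal name. Among them 135 and 81 cells (Y7) and 21, 18 and 16 cells (Y8) had the general name ExNeuron, which gives no projection type. Whether callosal cells were among these was not tested. Types were given to clusters split by age. The lack of the callosal name in adults was therefore not tested and says nothing on whether such neurons were in the tissue.

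Libraries 1 and 2 also differed from the other newborn libraries in how the other pyramidal neurons were named. They held 168 and 188 cells called ExNeuron, a general excitatory name, and 2 and 8 layer IV cells. Libraries 3, 4 and 5 held 0, 1 and 0 ExNeuron cells and 178, 147 and 113 layer IV cells. Their part in the callosal share was not tested. A share that uses neither name, callosal among callosal, subcerebral and corticothalamic cells, was 31.9% and 31.3% in libraries 1 and 2 and 42.5%, 46.1% and 48.4% in libraries 3 to 5, so the same libraries were low. For each subcerebral cell there were 0.703 and 0.667 callosal cells in libraries 1 and 2, and 1.17, 1.401 and 1.43 in libraries 3 to 5.

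The marmoset callosal cells of these libraries differed in depth as well. The median was 5811.5 and 5394 reads in libraries 1 and 2, and 9216, 10003 and 8186 in libraries 3 to 5. The peaks followed, with 2827 and 2783, and 4905, 5170 and 4287.5. Against the other pyramidal neurons of the same library the callosal median in reads was 0.712 and 0.632 times as high in libraries 1 and 2, and 0.993, 1.13 and 0.841 times in libraries 3 to 5. These other neurons were not of the same types. ExNeuron cells, with medians of 9414.5 and 9723 reads, entered in libraries 1 and 2, and layer IV cells mainly in libraries 3 to 5. Subcerebral cells, present in all, had medians of 6968 and 7867 reads in libraries 1 and 2, and 9643, 8637 and 9346 in libraries 3 to 5. Callosal cells over 12000 reads made up 12.3% and 9.52% in libraries 1 and 2. In libraries 3, 4 and 5 they numbered 63 of 252, 86 of 262 and 68 of 250, so more of these cells lay near the upper read limit of the cell filter. Among cells with 2000 to 4000 reads the median peaks were 1543, 1680.5, 1511.5, 1587 and 1739 in libraries 1 to 5. These values rest on 21, 28, 30, 25 and 40 cells. Their median reads were 3092, 3183, 2718.5, 2901 and 3097.5, so this is not a comparison at equal reads. Over all callosal cells the median peaks per 100 reads were 48.2 and 50.9 in libraries 1 and 2, and 53.1, 52.5 and 53.2 in libraries 3 to 5.

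Side by side, newborn marmoset and mouse callosal cells differed in depth after the authors had sampled the libraries down. The species were not compared by a test, because they were also made by different methods, a droplet kit for marmoset and plate-based indexing for mouse. The median over newborn marmoset libraries was 8186 reads and 4287.5 peaks per callosal cell, and in the 12 mouse libraries the medians ran between 1846 and 6260 reads and between 701 and 2493 peaks. Peaks per 100 reads were 48.2 to 53.2 in newborn marmoset and 51.9 to 58.1 in the 10 mouse libraries other than the numbered P1 libraries. At 2000 to 4000 reads the medians of 1511.5 to 1739 peaks in marmoset and 1472 to 1741.5 in those 10 mouse libraries covered nearly the same range, although the peak sets were called separately. Reads within this window were not equal between libraries. Callosal cells per corticothalamic cell were 1.95 ± 0.550 in newborn marmoset (SD, n = 5) and 1.90 ± 0.237 in mouse at P1 (SD, n = 4), whereas per subcerebral cell they were 1.07 ± 0.369 in newborn marmoset and 5.00 ± 0.866 in mouse at P1.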

How the data were processed

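Callosal cells were studied in 12 mouse libraries made by combinatorial indexing and 10 marmoset libraries made with a droplet kit. The authors aligned reads with Bowtie2, removed duplicates, called peaks with MACS2, kept cells within limits on reads and peaks, clustered them and named types from gene activity. The mouse build was mm10, according to the submitters' processing notes. According to the paper, libraries were first sampled down to a similar read depth per cell across conditions. The deposited tables hold the count of reads and the count of peaks of each cell, without further normalization. How doublets were handled is not stated in the sources used.

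Cells were counted by library with Python 3 (pandas, numpy and scipy). Untyped cells were left out of shares unless stated. Library values were compared by exact two-sided permutation tests of means, tested on simulated data, and by sign-flip tests over libraries. Benjamini-Hochberg adjustment was made over each family. Alternatives were a replicate block, each library left out, read limits, means over cells, other handling of untyped and layer IV cells and, chosen after seeing the data, leaving out both numbered P1 libraries and counting cluster 9 as corticothalamic. No genes were named. Members and tests were chosen with earlier results of these data known. Nothing in the labels says that libraries came from separate animals, so p-values measure the spread between libraries, which may be technical. Intervals are 95% Wilson intervals, and the limit for a count of 0 is 3 cells.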

Additional observations from a re-analysis of the deposited data

Results flagged for a closer look

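P7 Pool library 1 lay apart from the other 3 P7 libraries in 2 measures. Its callosal share of annotated cells was 30.9%, against 28.6% to 28.7% in the others, and its callosal cells had 51.9 peaks per 100 reads, against 55.3 to 55.8. Of the 28 groups looked at in this way, chance alone flags about 1 in 20.

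The numbered and Pool libraries went opposite ways in median reads per callosal cell. P7 minus P1 was -1492 reads in numbered and 1262 in Pool libraries, and P21 minus P1 was -1026 and 2306. Peaks per 100 reads did so too, with P7 minus P1 at 41.5 in numbered and -4.41 in Pool libraries and P21 minus P1 at 41.2 and -2.52. These differences between the sets of libraries were not tested.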

How the results depend on the processing

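None of the 15 age differences passed 0.05 after adjustment, a result limited by the smallest p that 4 against 4 libraries allow. Of 88 values under alternatives other than leaving out 1 library, 77 kept their direction and 11 turned. Pooled cells have no test, and neither the replicate block nor 2 against 4 libraries could pass 0.05, so those values show direction only. With untyped cells in the denominator, P21 minus P7 of the callosal share of annotated cells was 2.49 points. With cluster 9 of P7 as corticothalamic it was 2.12, and the share among callosal, subcerebral and corticothalamic cells was 3.58, with -15.5 for P7 minus P1. With layer IV counted as callosal, that share gave 11.4 for P7 minus P1 and 2.07 for P21 minus P1. Without layer IV cells, the log2 ratio of callosal to other pyramidal reads gave -0.076 for P7 minus P1 and 0.20 for P21 minus P7, and over all mouse libraries it was -0.12 for reads and -0.12 for peaks, both then past 0.05. Peaks of cells with 2000 to 4000 reads gave a log2 ratio of 0.0020 over all libraries. Without both numbered P1 libraries, P7 minus P1 was 0.50 points for the share among the 3 types and 1691 for median reads, and the ratios over all libraries were 0.0107 for reads and 0.0108 for peaks.

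Leaving out each library in turn gave 144 values, of which 139 kept their direction. As a share of annotated cells, P7 minus P1 ran between -11.3 and -10.5, P21 minus P1 between -13.3 and -12.4 and P21 minus P7 between -2.63 and -1.49. Among the 3 types they ran between -3.11 and -0.41, -13.4 and -10.5, and -11.5 and -8.42. Median reads ran between -736 and 735 (P7 minus P1), 18.3 and 1490 (P21 minus P1) and 465.7 and 968 (P21 minus P7), and median peaks between 910.6 and 1216, 1394 and 1541, and 257.75 and 562.75. The log2 ratio of reads ran between 0.03 and 0.18, 0.19 and 0.27, and 0.05 and 0.19, and over all mouse libraries between -0.04 and 0.0019 for reads and -0.04 and 0.0024 for peaks. Without P7 numbered library 1, 5 differences that involve P7 had p = 0.0286 and an adjusted p of 0.0476 (exact permutation test). They were P7 minus P1 of the share of annotated cells and of median peaks, and P21 minus P7 of median reads, of median peaks and of the log2 ratio. The adjusted value depends on how many comparisons share that p, so it does not show that each difference grew. Median reads of P7 minus P1 turned to 239.5, 735 and 174 without P1 numbered library 1, P1 numbered library 2 and P7 Pool library 1.

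With the replicate number as a block within numbered and Pool libraries the differences kept their values, for example -10.7 points for P7 minus P1 of the share of annotated cells. The smallest p of that test is 0.125, so none could pass. The deviations of same-numbered libraries correlated at 0.17, 0.15 and 0.34 in the 3 pairs of ages of the numbered libraries and at -0.12, -0.31 and -0.41 in those of the Pool libraries. Not every pair was above 0.1, so the numbers were not taken to pair the libraries. Depth limits the Pool P1 values, where many callosal cells lie near the read minimum. In the numbered P1 libraries reads were not few, and peaks were low at equal reads. Callosal cells there reached down to the peak minimum of the cell filter, so cells with few reads may be missing. The effect of that minimum on reads per cell was not tested.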
